A study of Mus musculus with 6 samples.

Results

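The endocannabinoid system genes described here are Cnr1, Dagla, Daglb, Napepld, Mgll, Faah and Abhd6, taken with every probe that carries one of these 7 symbols as its gene name on the array. They have 14 probes, of 56605 probes under 37074 gene names. Hypothalamic RNA of male C57BL/6J DIO mice, obese from a diet with 60 kcal% fat, was hybridized in 1 colour to 6 Agilent arrays, 1 mouse to an array. In 3 of the arrays the mice received GSK-J4, an inhibitor of the enzymes that take methyl groups off H3k27me3, at 30 mg kg−1, and in the other 3 they received the vehicle at 0 mg kg−1 of the compound, all mice of both groups having been fed the same diet. The methods put the start of the diet at 6 weeks of age and its length at 16 weeks, with daily i.p. injection at ZT 2 h and tissue taken at ZT 6 h, ZT counting from lights on. The deposited design gives day 4 after exposure, while the methods give a course of 21 d, and how the 2 relate was not decided here.

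Endocannabinoids are lipid messengers that neurons make on demand from membrane phospholipids. 2-Arachidonoylglycerol is formed by the diacylglycerol lipases Dagla and Daglb, and anandamide can be released by the phospholipase D Napepld. Both act on the CB1 receptor, the product of Cnr1, which sits mostly on axon terminals and lowers transmitter release through inhibitory G proteins. Mgll and, to a smaller extent, Abhd6 hydrolyse 2-arachidonoylglycerol, and Faah hydrolyses anandamide. In the hypothalamus this system is known for its part in feeding and energy balance.

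The calls within the set lay in the receptor gene and in Daglb. Both Cnr1 probes fell in the GSK-J4 arrays, by 0.47 and 1.06 on the log2 scale, while 1 dim probe of Daglb rose by 0.45 and the other 11 probes did not pass the test. In all, 3 of the 14 probes had an adjusted p of at most 0.05 (limma), 1 higher and 2 lower in GSK-J4. The split was 1 and 1 when each array was scaled to its 75th percentile of signal in place of quantile normalization, and 0 and 1 with normexp, another background correction, or after removal of the trend of signal on probe GC content (the GC correction). Of the 34443 probes tested on the array, 16.8% had such an adjusted p, 8.39% higher and 8.42% lower, so that the number of member probes called was near the background. The median log2 fold change was 0.097 over the 14 probes and 0.024 over all tested probes, and 8 of the 14 lay above 0. With the GC correction the median turned to -0.033 over the 14 probes, 6 of them above 0, and it was -0.16 over the 7 genes with the mean of a gene's probes and -0.29 with 1 probe per gene. Each of the 14 was well above background on every array. Leaving out any 1 vehicle array left 0 of the 14 called (limma), with 3 or 4 at an unadjusted p under 0.05. Of all 34443 tested probes, 5 to 13 were then called and 9585 to 10443 had such an unadjusted p.

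The start of the probes that the results turn on is printed here because the base composition of a probe went along with its change on these arrays. Each line gives the first 30 of 60 bases as the scanner files list them, 5′ to 3′, with G and C in capitals.
Cnr1 A_55_P1953753: CtGGtaGCatCattGaGaCtGCtGtGatGt
Cnr1 A_55_P2138326: tatCtCtCtttCaCaGGaaaGGtCaaaGCa
Daglb A_55_P2715834: ttGCtaaGaGtGGGaGCCaaGGCtttatGC
Dagla A_52_P127682: atGaatatatCtGtatataaaGttttCtGt
Mgll A_55_P2063316: aattaCtaaaGaaGCCaatGtGCaCtaCaG
Over all 60 bases the GC content was 35% and 41.7% for the Cnr1 probes, 45% for the Daglb probe, 23.3% for the Dagla probe and 40% for the Mgll probe. Among tested probes with 35% GC, 15.3% were called lower and 1.69% higher, whereas among those with 55% GC, 1.53% were called lower and 22.6% higher.

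The arrays of a group shared a slide and a scan of their own, and the effect of the slide and that of the treatment cannot be told apart here. The 75th percentile of the processed spot signal was 1136 to 1335 on the vehicle arrays and 606 to 693 on the GSK-J4 arrays, and 62.8% to 63.6% of the probes were well above background against 57.7% to 58.7%. Of 10 markers of the hypothalamus, Npy, Cartpt, Pomc, Nr5a1, Oxt and Hcrt were well above background on all 6 arrays, Agrp on 5, and Avp, Trh and Pmch on 3, namely 1 vehicle array and 2 GSK-J4 arrays each. The 3 markers of cortex and hippocampus reported here (Slc17a7, Neurod6 and Tbr1) and all 4 of the striatum were well above background on every array. One vehicle array stood apart in the markers of the choroid plexus, with a summed signal of 111916 against 3009 to 12217 on the other arrays. In these bulk samples, fewer cells that express a gene and less RNA per cell cannot be told apart.

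**Figure D1:**
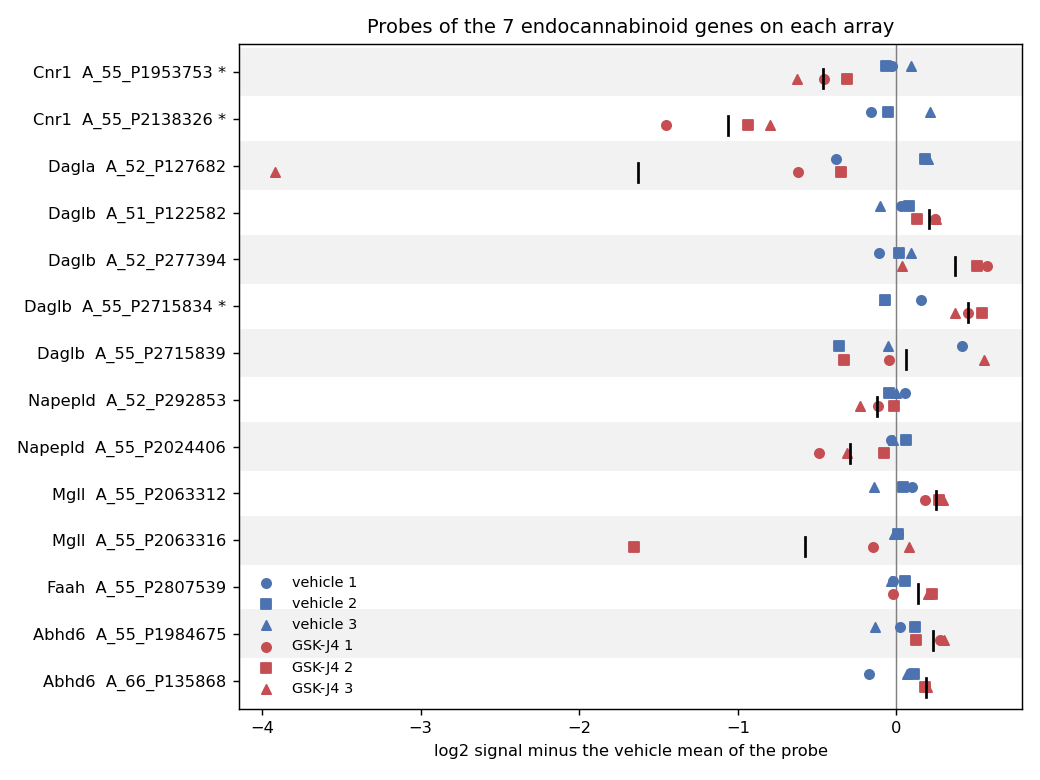
Log2 signal of each of the 14 probes on each of the 6 arrays, with the vehicle mean of the probe taken off; colour gives the group, the symbol the replicate, the black bar the GSK-J4 mean, and a star an adjusted p of at most 0.05 (limma). The GSK-J4 arrays lie below all vehicle arrays for both Cnr1 probes, and 1 GSK-J4 array alone lies far to the left for the Dagla probe and 1 for a Mgll probe.

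Cnr1 is measured by A_55_P1953753, on chromosome 4 of mm9 from 34035526 to 34035585 on the plus strand, at position 5526 of its RefSeq transcript, and by A_55_P2138326, from 34022232 to 34022291 on the same strand, which the files place at position 697 of an Ensembl transcript only. A_55_P1953753 gave log2 signals of 13.89, 13.85 and 14.01 on the vehicle arrays and of 13.46, 13.60 and 13.29 on the GSK-J4 arrays. Every GSK-J4 array lay below every vehicle array. On GSK-J4 replicate 3, the lowest, the spot lay 0.24 below the mean of the other GSK-J4 arrays. The 20 nearest tested spots there had a median deviation of -0.48, and 3 of them lay more than 1 log2 unit below. On GSK-J4 replicates 1 and 2 that median was 0.29 and 0.18. The log2 fold change was -0.47 (standard error 0.10, 95% interval -0.72 to -0.21, limma adjusted p = 0.0378), a 1.38-fold lower signal, and the exact permutation test gave its smallest two-sided p of 0.1. A_55_P2138326 gave 7.51, 7.62 and 7.88 on the vehicle arrays and 6.22, 6.73 and 6.88 on the GSK-J4 arrays. The groups did not overlap here either, and the lowest array was GSK-J4 replicate 1, whereas for the first probe it was GSK-J4 replicate 3. The log2 fold change was -1.06 (standard error 0.20, 95% interval -1.56 to -0.57, limma adjusted p = 0.0269), a 2.09-fold lower signal with an exact permutation p of 0.1. This was the only one of the 14 probes that changed at least 1.5-fold with an unadjusted p of at most 0.05 in limma. The methods set these thresholds, but the p here came from limma and not from the methods' own test. Of all tested probes 12.6% passed in limma, 7.86% lower and 4.79% higher. By the methods' own test, with unequal variances, A_55_P2138326 was again the only member probe past the thresholds. Of all 34443 tested probes, 1799 then passed as lower and 1139 as higher.

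**Figure D2:**
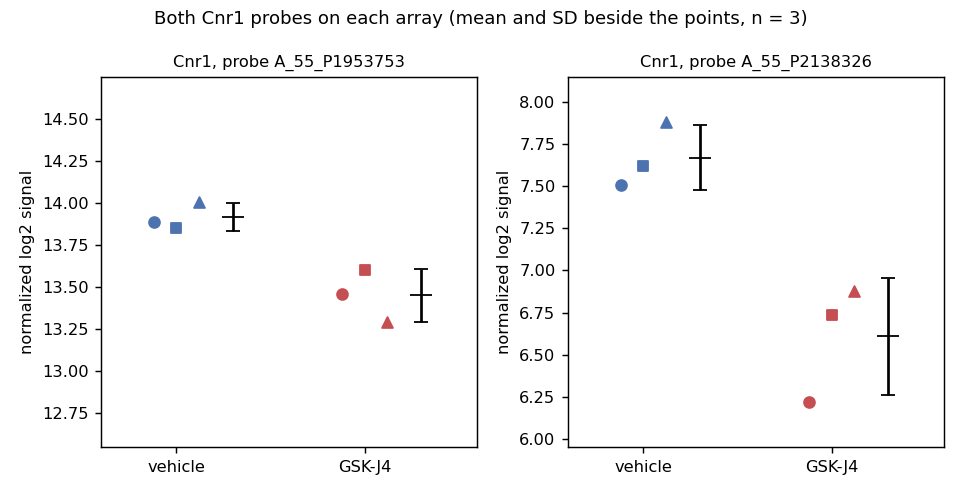
Normalized log2 signal of both Cnr1 probes on the vehicle and GSK-J4 arrays; each point is an array, and the bar beside the points gives the mean and SD (n = 3). The panels span the same number of log2 units, and the groups are apart in both, by 0.47 on the left and by 1.06 on the right.

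Both Cnr1 probes thus moved the same way. Of the 4934 gene names with exactly 2 tested probes, 46 (0.932%) had both called lower and 143 (2.90%) had both called in the same direction. The mean of the 2 probes on each array differed by -0.76 between the groups (limma adjusted p = 0.0204). Over the 6 arrays the 2 probes had a Pearson r of 0.841, a description that includes the group difference. The log2 difference between the probes grew by 0.60 from vehicle to GSK-J4 without overlap of the groups, and by 0.38 with overlap under normexp (exact permutation p = 0.4). In the reported processing the exact permutation p of that difference was 0.1, and the smallest value was 0.5 after Benjamini-Hochberg adjustment over the 10 pairs of probes of 1 gene that were compared.

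The call for A_55_P1953753 depended on the processing, although its value lay below 0 in each of the 22 alternatives run, from -0.54 to -0.23. It was -0.23 (limma adjusted p = 0.172) with each array scaled to its 75th percentile, -0.30 (limma adjusted p = 0.107) after a correction for probe GC content, and -0.33 (limma adjusted p = 0.218) with normexp background correction. Leaving out 1 array ended the call (limma adjusted p from 0.0614 to 0.118) except for GSK-J4 replicate 2 (limma adjusted p = 0.0406). Without GSK-J4 replicate 3 the value was -0.39 (limma adjusted p = 0.0614). Over all alternatives its adjusted p ran from 0.0218 to 0.218. A_55_P2138326 kept its call under those 3 settings, with -1.23 (limma adjusted p = 0.0175), -1.06 (limma adjusted p = 0.0352) and -0.71 (limma adjusted p = 0.0195), and its adjusted p over 21 alternatives ran from 0.0175 to 0.127. Without 1 vehicle array it was between -1.14 and -0.96 (limma adjusted p from 0.0713 to 0.0898), and any such array left out ended the call.

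Cnr1 is also known for strong expression in cortex and hippocampus. The summed linear signal of the 3 markers of these regions was 14421 to 14503 on the vehicle arrays. On the GSK-J4 arrays it was 11846 to 12658, 0.851-fold on average. Of the 3, Neurod6 alone was called, and it fell by 0.47 (limma adjusted p = 0.0335). Its probe had 35% GC, a content at which 15.3% of tested probes were called lower. The sum of the 10 hypothalamic markers was 3643 to 3871 against 4934 to 5512. Npy made up most of it, at a mean log2 signal of 11.52 against 11.94. The next, Cartpt, was at 8.40 against 8.93. Of the 7 hypothalamic markers tested, 6 lay above 0, and Npy (50% GC) and Pomc (55% GC) were called higher (limma). Oxt, Agrp and Nr5a1 were at 0.085, 0.10 and -0.30, none called. With the GC correction the ratio of sums was 0.922 for cortex and hippocampus and 1.23 for the hypothalamus. The part of these markers in the Cnr1 result was not tested. The markers of neurons summed to 124423 to 137192 against 109629 to 147478, and those of the striatum to 6324 to 10086 against 6820 to 8528, with overlap of the groups in both.

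The probes whose pattern over the 6 arrays was most like that of A_55_P1953753 were those of Trim24 (Pearson r = 0.999), 9430011C21Rik (r = 0.998) and Lrch3 (r = 0.998), chosen from 30938 probes of other gene names well above background on every array. Their log2 fold changes were -0.47, -0.75 and -1.05. With 6 arrays in 2 groups such values are common, and 518 probes had an r of at least 0.95. The GC content of the 3 probes was 35%, 36.7% and 35%.

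**Figure D3:**
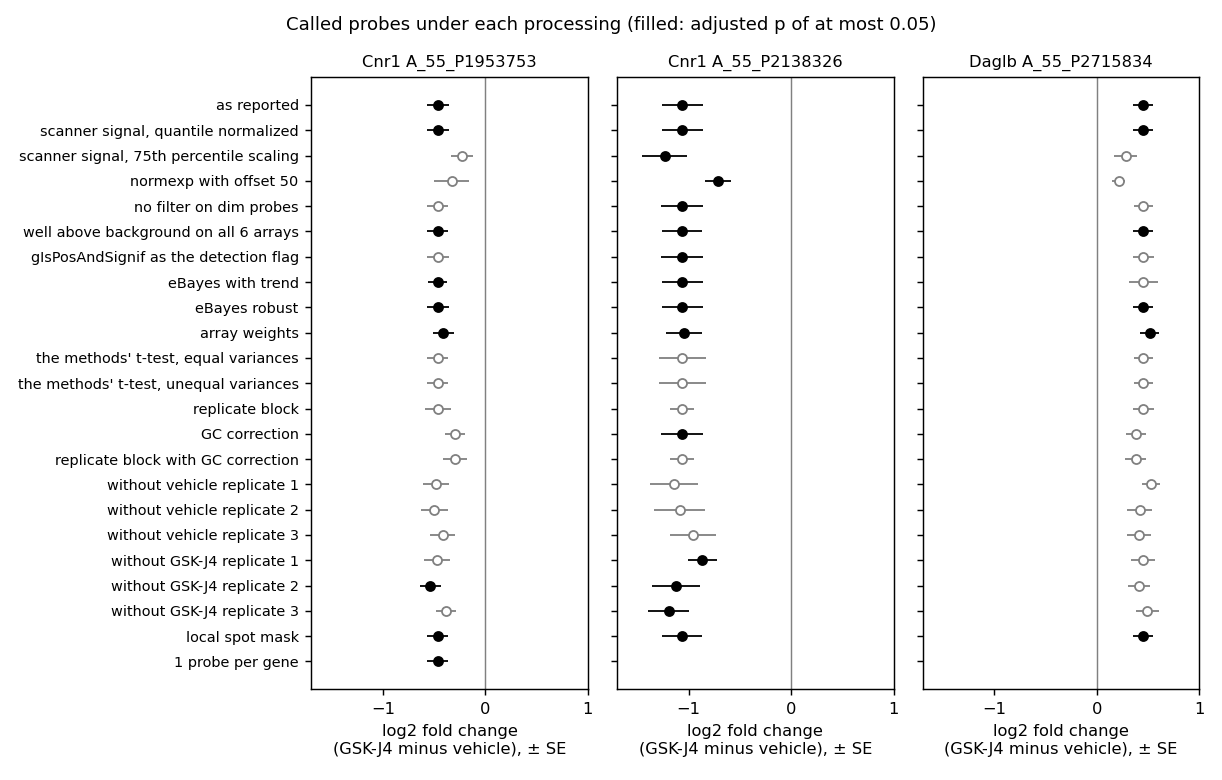
Log2 fold change with its standard error for the 3 called probes under the reported processing and each alternative; filled points have an adjusted p of at most 0.05. Cnr1 stays left of 0 and Daglb A_55_P2715834 right of 0 throughout, while many points are open.

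Of the lipases that make 2-arachidonoylglycerol, Dagla, the main one in the adult brain, has 1 probe, A_52_P127682, on chromosome 19 of mm9 from 10319766 to 10319825 on the minus strand. It gave log2 signals of 11.52, 12.08 and 12.10 on the vehicle arrays and of 11.28, 11.55 and 7.98 on the GSK-J4 arrays. GSK-J4 replicate 3 alone was far lower, and replicate 2 lay above the lowest vehicle array. The log2 fold change of -1.63, the largest in size of the 14, had a standard error of 0.97 and a 95% interval from -4.01 to 0.75 (limma adjusted p = 0.272, exact permutation p = 0.2). Over the 39 tested probes with the same GC content of 23.3%, the median log2 fold change was -0.51, and 25.6% were called lower. Without GSK-J4 replicate 3 the Dagla value was -0.49 (limma adjusted p = 0.184), so that this array set most of the value. The spot on that array had a processed signal of 165 against 1995 to 6352 on the other 5, and its pixels varied by 42.5% (SD over mean) against 8.94% to 10.8%. Of the 20 nearest tested spots on that array, 5 lay more than 1 log2 unit below the mean of the other GSK-J4 arrays and 1 more than 3, with a median deviation of 0.0096. On GSK-J4 replicate 3, 206 tested probes lay over 3 log2 units below the other arrays of the group, compared with 15 to 24 on each of the other 5 arrays. Of these 206, 155 had nearest tested spots with a median deviation under -0.5, unlike the Dagla spot. Another setting left out values whose 20 nearest tested spots had a median deviation from the group median beyond 0.5 log2 units, in either direction. This setting, chosen after the data were seen, removed no Dagla value and left the difference at -1.63 (limma adjusted p = 0.259). With the arrays weighted by their quality it was -1.32 (limma adjusted p = 0.252).

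Daglb, the second diacylglycerol lipase, has 4 probes on chromosome 5 of mm9, and 3 of them gave values between 0.21 and 0.45. The called probe, A_55_P2715834, from 144236085 to 144236144, was dim, with 5.38, 5.15 and 5.14 on the vehicle arrays and 5.67, 5.76 and 5.59 on the GSK-J4 arrays. The groups did not overlap, and the log2 fold change was 0.45 (standard error 0.10, 95% interval 0.21 to 0.69, limma adjusted p = 0.0345, exact permutation p = 0.1). It lay above 0 in each of 21 alternatives, from 0.21 to 0.53, and was called in 5 of them, with adjusted p from 0.0219 to 0.131. With 75th percentile scaling it was 0.28 (limma adjusted p = 0.116), and without any 1 of the 6 arrays the call was lost (limma adjusted p from 0.0508 to 0.116).

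The brighter Daglb probes did not pass. A_51_P122582 gave 10.67, 10.72 and 10.53 on the vehicle arrays and 10.88, 10.77 and 10.89 on the GSK-J4 arrays, without overlap, a difference of 0.21 (limma adjusted p = 0.135). A_52_P277394 gave 10.76, 10.89 and 10.96 against 11.44, 11.38 and 10.91, a difference of 0.37 (limma adjusted p = 0.155). Here GSK-J4 replicate 3 lay among the vehicle arrays, and without it the difference was 0.54 (limma adjusted p = 0.0372). A_55_P2715839, also dim, gave 5.82, 5.05 and 5.36 against 5.37, 5.08 and 5.97, and its difference of 0.059 (limma adjusted p = 0.899) turned to -0.12 with 75th percentile scaling and to -0.014 with the GC correction. None of the 6 differences between Daglb probes separated the groups.

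Napepld, which releases anandamide and related N-acylethanolamines, has a pair of probes on the minus strand of chromosome 5, from 21168862 to 21168921 and from 21171101 to 21171160. The first, A_55_P2024406, gave 11.34, 11.44 and 11.36 on the vehicle arrays and 10.89, 11.30 and 11.07 on the GSK-J4 arrays. All GSK-J4 arrays were below the vehicle arrays, yet the difference of -0.29 did not pass (standard error 0.12, limma adjusted p = 0.136). The second, A_52_P292853, gave 7.77, 7.67 and 7.71 against 7.60, 7.70 and 7.48, with overlap and a difference of -0.12 (limma adjusted p = 0.341). Both stayed below 0 in all alternatives run, between -0.40 and -0.051, and neither was called in any.

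None of the 5 probes of the enzymes that break endocannabinoids down passed, with adjusted p from 0.112 to 0.400 (limma), and 4 of the 5 differences lay above 0. Mgll, the monoacylglycerol lipase, is measured on chromosome 6 of mm9 by A_55_P2063312 (from 88714636 to 88714695) and A_55_P2063316 (from 88778292 to 88778351). A_55_P2063312 gave 11.65, 11.59 and 11.41 on the vehicle arrays and 11.73, 11.82 and 11.84 on the GSK-J4 arrays, without overlap, a difference of 0.25 (limma adjusted p = 0.112) that was 0.34 (limma adjusted p = 0.0457) with 75th percentile scaling and 0.033 (limma adjusted p = 0.832) with the GC correction. A_55_P2063316 gave 13.91, 13.91 and 13.88 against 13.75, 12.24 and 13.98. GSK-J4 replicate 2 alone was low, and the difference of -0.58 had a standard error of 0.46 (limma adjusted p = 0.400, exact permutation p = 0.4). On that array 16 of the 20 nearest tested spots lay more than 1 log2 unit below the mean of the other GSK-J4 arrays, with a median deviation of -1.78, close to the -1.62 of the Mgll spot itself. Its pixels varied by 24.7%, against 8.07% to 11.2% on the other arrays. With values left out by the deviation of their surroundings, the setting used above for Dagla, the difference was -0.034.

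**Figure D4:**
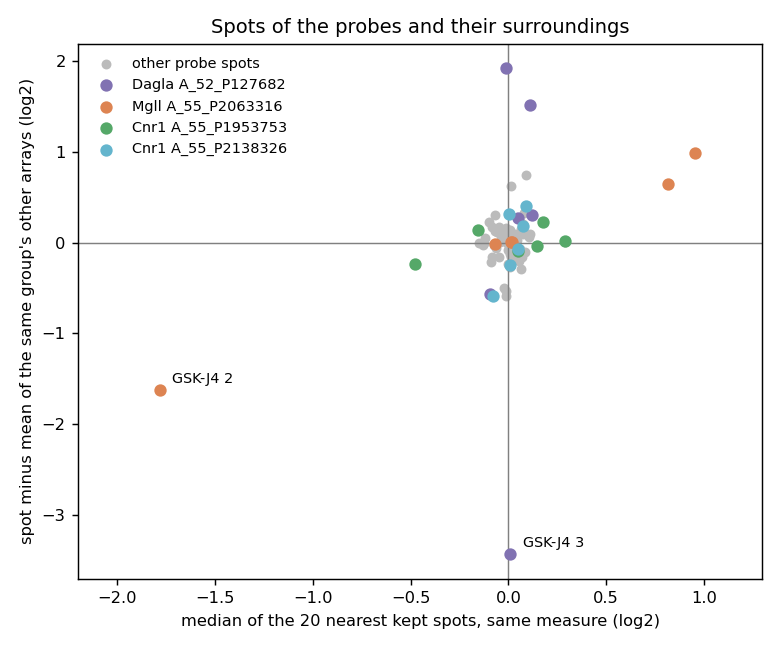
Log2 deviation of each spot of the 14 probes from the mean of the same group's other arrays (vertical) against the median of the same measure over the 20 nearest tested spots of the array (horizontal). The Mgll spot on GSK-J4 replicate 2 lies low together with its surroundings (-1.62 and -1.78), and the Dagla spot on GSK-J4 replicate 3 lies low with surroundings near 0 (-3.43 and 0.0096); the remaining spots of these probes shift upward on the arrays of the same group because the low spot enters their reference.

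Faah, the main anandamide hydrolase, is measured by A_55_P2807539 on chromosome 4 from 115670834 to 115670893 on the minus strand. It gave 11.41, 11.48 and 11.39 on the vehicle arrays and 11.41, 11.65 and 11.63 on the GSK-J4 arrays. The groups overlapped, and the difference of 0.13 (limma adjusted p = 0.340) turned to -0.13 with the GC correction, this probe having 55% GC.

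Abhd6, a second lipase of 2-arachidonoylglycerol, has its probes on chromosome 14 from 8888103 to 8888162 and from 8889003 to 8889062. A_55_P1984675 gave 10.65, 10.74 and 10.49 on the vehicle arrays and 10.90, 10.75 and 10.92 on the GSK-J4 arrays, a difference of 0.23 (limma adjusted p = 0.147). A_66_P135868 gave 10.75, 11.04 and 10.99 against 11.11, 11.11 and 11.12, a difference of 0.19 (limma adjusted p = 0.220). The groups did not overlap for either probe, narrowly so for the first, and both stayed above 0 in all alternatives run. A_55_P1984675 lay between 0.17 and 0.40, the highest with the GC correction (limma adjusted p = 0.0612). A_66_P135868 lay between 0.097, without vehicle replicate 1, and 0.31, with normexp.

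Groups that do not overlap were thus found for 8 of the 14 probes, 3 lower (both Cnr1 probes and 1 of Napepld) and 5 higher (2 of Daglb, 1 of Mgll and 2 of Abhd6). Over all tested probes the groups did not overlap for 45.6%, 21.2% lower and 24.5% higher, so that this count too was near the background.

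The 26 other genes of the pathway that were listed have 54 probes, of which 38 probes of 21 genes were tested, and 1 was called higher and 6 lower (limma), 7 of the 38 against 16.8% of all probes. Leaving out any 1 vehicle array left 0 of these calls. Then 8 or 9 of the 38 had an unadjusted p under 0.05, against 9585 to 10443 of all 34443 tested probes. The split was 4 higher and 5 lower with 75th percentile scaling, 2 and 6 with normexp, and 2 and 5 with the GC correction. Their median log2 fold change was -0.088. Among receptors for endocannabinoids and related lipids, Gpr55, Gpr18, Gpr119 and Trpv1 had no array with a signal well above background. Cnr2, the CB2 receptor, known mainly from immune cells, gave 9.53, 9.39 and 9.36 on the vehicle arrays and 8.34, 8.41 and 8.07 on the GSK-J4 arrays, a difference of -1.16 in log2 signal (standard error 0.11, limma adjusted p = 0.0129). Its groups were far apart, and its value lay between -1.24 and -0.99 over 22 alternatives, with a call in 16 of them. The Cnr2 probe had 35% GC, a content at which 15.3% of tested probes were called lower. Of the 6 markers of microglia 4 lay above 0, and 0 were called lower and 1, C1qa, was called higher (limma). Their sum was 18399 to 20399 on the vehicle arrays and 14156 to 25149 on the GSK-J4 arrays. It was lowest on GSK-J4 replicate 3, where Csf1r was at 11.88 against 13.68 and 13.82 on the other GSK-J4 arrays. The part of microglia in the Cnr2 result was not tested. Ppara, a nuclear receptor that binds oleoylethanolamide, was the only one of the 26 pathway genes with a probe called higher. That probe went from 8.45, 8.30 and 8.30 to 8.97, 8.81 and 8.84, by 0.52 (standard error 0.085, limma adjusted p = 0.0217). The other Ppara probe gave 0.29 (limma adjusted p = 0.0759).

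The 8 tested probes of the proteins that bind the tail of the CB1 receptor, which belong to 2 genes, all lay below 0, with a median of -0.30, and 3 passed. Over all tested probes 47.3% lay below 0 and 8.42% were called lower. Sgip1, which slows internalization of the receptor, had all 3, of 5 tested probes. Its probe A_65_P04171 gave 11.18, 10.85 and 11.02 on the vehicle arrays and 9.70, 10.36 and 9.97 on the GSK-J4 arrays, a difference of -1.004 in log2 signal (standard error 0.19, limma adjusted p = 0.0269). The other called probes fell by 0.51 and 0.44 (limma adjusted p = 0.0352 and 0.0368), and the remaining pair gave -0.20 and -0.13. In this order the 3 called probes kept their call in 12, 9 and 8 of 21 alternatives. By the methods' t-test with equal variances 0 of them were called after adjustment. Cnrip1, whose product binds the same tail, had 3 probes between -0.40 and -0.19, none called, and its probe A_51_P460048 turned from -0.19 to 0.013 with 75th percentile scaling.

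**Figure D5:**
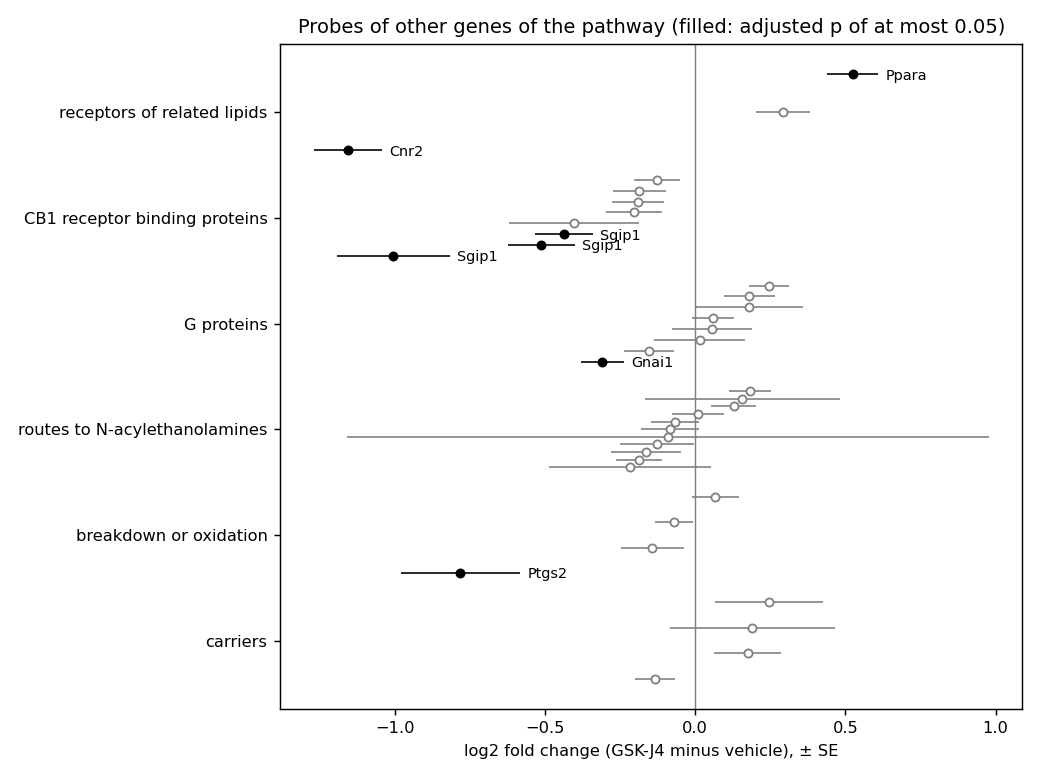
Log2 fold change with its standard error for the 38 tested probes of other genes of the pathway, by role; filled points, named, have an adjusted p of at most 0.05 (limma). The 8 probes of CB1 receptor binding proteins all lie left of 0, from -1.004 to -0.13, and the routes to N-acylethanolamines hold no filled point.

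Of the 8 probes of inhibitory G proteins 1 was called, that of Gnai1, which fell by 0.31 (limma adjusted p = 0.0415, called in 9 of 22 alternatives). It was -0.12 (limma adjusted p = 0.317) with 75th percentile scaling and -0.14 (limma adjusted p = 0.238) with the GC correction. The 4 probes of Gnao1 lay between 0.057 and 0.25, none called, with A_55_P2096144 at 0.18 (limma adjusted p = 0.503). The value of that Gnao1 probe was 0.44 with 75th percentile scaling, 0.032 without GSK-J4 replicate 3 and 0.042 without vehicle replicate 3. Ptgs2, a cyclooxygenase that can oxidize endocannabinoids, gave 9.24, 9.42 and 9.17 on the vehicle arrays and 8.07, 8.77 and 8.64 on the GSK-J4 arrays, a difference of -0.78 on the log2 scale (limma adjusted p = 0.0495) that was called in 7 of 22 alternatives. The other 3 probes for breakdown, of Abhd12 and Naaa, were between -0.14 and 0.068, with Abhd12 A_55_P2087671 at -0.070 and at 0.048 with 75th percentile scaling. The 4 probes of the fatty acid binding proteins, which carry these lipids in the cytosol, gave 0 calls in limma, 0 at an unadjusted p under 0.05 and 0 with the methods' t-test after adjustment. Among them Fabp5 A_55_P1953387 was at -0.13, and at 0.20 with 75th percentile scaling. The 11 tested probes of other routes to N-acylethanolamines, between -0.22 and 0.18, also gave 0 calls in limma, 1 at an unadjusted p under 0.05 and 0 with the methods' t-test after adjustment, with Abhd4 A_51_P406020 at 0.13 (limma adjusted p = 0.275), and at 0.40 (limma adjusted p = 0.0162) with 75th percentile scaling. Of all 34443 tested probes, 12577 had an unadjusted p under 0.05 in limma.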

How the data were processed

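RNA of 6 mice was measured on Agilent SurePrint G3 arrays, 3 labelled GSK-J4 and 3 labelled vehicle. The authors extracted the intensity of each spot with Agilent Feature Extraction (10.7.1.1 in the submitters' processing notes) and deposited it with its flags. They also deposited log2 values that, according to the methods, went through quantile normalization in GeneSpring (14.8). After sorting, no 2 columns differ by more than 0.00424, and each correlates with its own array's log2 intensity at 0.999 or above. Columns were assigned by sample name, and the log2 values were used as deposited. Probe positions are those of the deposited files (mm9), whose exon or UTR annotation was not determined here, and all 7 symbols were among the RefSeq gene names given.

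A probe was tested where 1 group or both had a flag of signal well above background on each of their 3 arrays, 34443 of 56605 (22117 gene names). Groups were compared with lmFit and eBayes of limma 3.58.1 in R 4.3.3 with the package data.table (version 1.17.8), two-sided, with Benjamini-Hochberg adjustment over all tested probes. For single values the 20 orders of 3 arrays against 3 were enumerated, and 0.1 is the smallest two-sided p this gives. No member spot carried an outlier flag and no tested spot was saturated. The number of arrays limits the precision.

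The members, the lists of pathway genes and of tissue and cell type markers, and the tests were chosen with earlier results of these data known. Named are every member probe, the called pathway probes and the pathway probe with the highest mean in each role, and the 3 probes most correlated with the brighter Cnr1 probe. The other receptor, Sgip1, Cnrip1 and Gnao1 values, and the marker genes, were added after they were seen. A marker sum adds the linear normalized signal of 1 probe per gene. One gene of the list for cortex and hippocampus is not reported here and is in no sum. Same-numbered arrays of the groups deviated from their group means with r of 0.00731, 0.0256 and 0.0807, and the labels state no pairing. Alternatives were other normalizations and background corrections, filters, variance models, t-tests with equal and with unequal variances, and a replicate block. Others were a GC correction (lowess, span 30%), other ways to treat genes with several probes, and leaving out each array. The methods describe t-tests that do not assume equal variances, with the threshold on the unadjusted p. ChIP-Seq and the other experiments were not analysed here.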

Additional observations from a re-analysis of the deposited data

How the results depend on the processing

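In place of 3 member calls there was 1 with normexp, with no filter on dim probes, with the other detection flag (gIsPosAndSignif), with the GC correction, with 1 probe per gene and with the mean of a gene's probes. By t-tests with equal and with unequal variances 0 were called after adjustment, while 5 and 4 had an unadjusted p under 0.05. Of all 34443 probes, 11540 and 9301 had such a p in these t-tests. With the replicate number as a block, limma called 0 member probes, 0 pathway probes and 0 of all probes, also with the GC correction added, while 4 member probes had an unadjusted p under 0.05 in both fits. Of all 34443 probes, 11070 had such a p with the block and 9532 with the GC correction added. With 1 array left out, 0 to 2 member probes, 0 to 4 pathway probes and 5 to 4165 of all probes were called, against 3, 7 and 5788 with all arrays. One of the 2 member probes called without GSK-J4 replicate 3 was Daglb A_52_P277394, which was not called with all arrays. Without a vehicle array 0 member probes were called and 10, 13 and 5 of all probes (replicates 1, 2 and 3), and 2402 without GSK-J4 replicate 1. The number of pathway calls, 7, became 3 without the filter, with the other flag and with 1 probe per gene, 4 with the mean of probes and with the equal variance t-test, and 0 with the unequal variance t-test. The number of all calls, 5788, became 3765, 3711, 3509, 3315 and 93 under no filter, 1 probe per gene, the mean of probes and the t-tests with equal and unequal variances, and 3605 with the GC correction, which moved the share of higher calls from 49.9% to 41.2%.

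Single values that changed sign were those of Daglb A_55_P2715839 (-0.12 with 75th percentile scaling, -0.014 with the GC correction, with or without the block, and from -0.19 to 0.27 over the 6 arrays left out in turn, below 0 without vehicle replicate 2 or GSK-J4 replicate 3), Faah A_55_P2807539 (-0.13 with the GC correction, with or without the block), Fabp5 A_55_P1953387 (0.036 with the GC correction, with or without the block, and 0.20 under 75th percentile scaling), Cnrip1 A_51_P460048 (0.013) and Abhd12 A_55_P2087671 (0.048), both with 75th percentile scaling. The difference between the Cnr1 probes was 1.005 with 75th percentile scaling. For Daglb, A_51_P122582 minus A_55_P2715834 was -0.027 with that scaling, 0.026 with normexp and -0.10 with the GC correction, and A_52_P277394 minus A_55_P2715834 was 0.21 with normexp. For Napepld the difference was -0.064 with 75th percentile scaling, and for Abhd6 -0.11 with normexp and 0.22 with the GC correction. The ratio of marker sums, GSK-J4 over vehicle, moved by more than the spread between arrays with 75th percentile scaling for neurons (1.26), astrocytes (1.20), oligodendrocytes (1.23) and cortex and hippocampus (0.926), and with the GC correction for the hypothalamus (1.23), cortex and hippocampus (0.922) and the pituitary (0.962). Within that spread, it went from 1.06 to 1.32 for microglia with 75th percentile scaling and from 1.02 to 0.921 for the striatum with the GC correction. The cause of these shifts was not tested. The 7 marker lists without a call (neurons, astrocytes, oligodendrocytes, endothelium, striatum, choroid plexus and pituitary) held 31 tested genes. Of these, 7 had an unadjusted p under 0.05 in limma and 0 were called by the equal variance t-test after adjustment. Such an unadjusted p in limma was found for 12577 of all 34443 tested probes. Leaving out values by the deviation of their surrounding spots, low or high, was chosen after the data were seen. The only member value this removed was that of Mgll A_55_P2063316 on GSK-J4 replicate 2. No call of a member probe changed, but no value of a called probe was removed, so that the setting could not test those calls. The lower signal over background on the GSK-J4 arrays limits the dim probes, with a processed signal of 31.2 to 39.9 there for Daglb A_55_P2715834 and of 52.4 to 77.7 for Cnr1 A_55_P2138326.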
